A study of Mus musculus with 6 samples.

Results

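The hippocampal expression of 9 genes was examined: 7 receptors of the TREM and CD300 families (Trem1, Trem2, Treml2, Cd300a, Cd300lb, Cd300ld and Cd300lf) and the adaptors Tyrobp (DAP12) and Hcst (DAP10). They were found by symbol among the 54752 genes of the count tables. The study asked how the hippocampal transcriptome differs after severe chronic cerebral hypoperfusion, produced by bilateral common carotid artery stenosis (BCAS) with microcoils around both carotid arteries. It compared 3 BCAS mice with 3 sham mice, which had the same operation without coils. All were male wild-type C57BL/6 mice (C57BL/6 J in the methods), 14 weeks old by the labels, with no transgene, and their hippocampi were taken 3 weeks after surgery. Each library was made from total RNA of 1 whole right hippocampus, the side with the narrower coil, so the values average over all its cells. In such bulk samples, more cells of a type and more RNA per cell cannot be told apart.

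Libraries held 34301711 to 35607098 assigned reads in the sham group against 29652456 to 31892083 in the BCAS group. A total of 3 counts corresponded to 0.0874 to 0.0994 CPM (the reads of a gene scaled to an equal library total) and was taken as the limit of detection. Markers of hippocampal neurons summed to 1102 to 1167 CPM in the sham group, and 599.6 to 817 CPM in the BCAS group, and 3 of 7 of them were lower in BCAS mice past the thresholds given below. Choroid plexus markers varied from 37.7 to 5826 CPM among libraries and overlapped between the groups. Of 18617 genes tested, 8.47% were up-regulated in BCAS mice and 0.999% down-regulated, where a call required an absolute log2 fold change above 1 with an edgeR adjusted P under 0.05. These thresholds define a differentially expressed gene (DEG) in the following.

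TREM and CD300 receptors are immunoglobulin-like proteins of myeloid cells. The activating members have almost no intracellular tail and signal through an adaptor: Tyrobp carries an immunoreceptor tyrosine-based activation motif that recruits the kinase Syk, and Hcst carries a motif that recruits phosphoinositide 3-kinase. The inhibitory members, such as Cd300a, carry inhibitory motifs in their own tails and recruit phosphatases. In the brain, Trem2 and Tyrobp are mainly microglial. Trem2 binds lipids and apolipoproteins, and it is known for its part in the disease-associated microglial (DAM) program.

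The genes lie in 3 clusters of the mouse genome (mm10), and all are annotated as protein coding. Trem1 (ENSMUSG00000042265.13, chr17:48232768-48246924), Treml2 (ENSMUSG00000071068.7, chr17:48299498-48312533) and Trem2 (ENSMUSG00000023992.14, chr17:48346401-48354147) follow each other on the plus strand of chromosome 17. Tyrobp (ENSMUSG00000030579.10, chr7:30413760-30417585, plus strand) and Hcst (ENSMUSG00000064109.8, chr7:30417712-30419854, minus strand) are convergent neighbours. Cd300a (ENSMUSG00000034652.12, chr11:114890041-114904654, plus strand) is followed on the minus strand by Cd300lb (ENSMUSG00000063193.8, chr11:114922781-114934386), Cd300ld (ENSMUSG00000034641.2, chr11:114982274-114989922) and Cd300lf (ENSMUSG00000047798.15, chr11:115116214-115133992). None of the 9 shares exon bases with another annotated gene. The span of Cd300lf overlaps Rab37 on the opposite strand, which had 126, 93 and 126 counts in sham mice and 85, 65 and 147 in BCAS mice. The spans of Trem1 and Cd300lb overlap pseudogenes with at most 2 counts per library. Counting made no use of strand, and the part of intron reads of Rab37 in the Cd300lf counts was not tested. Stretches of 100 bases identical to another gene covered 0.849% of Cd300a (shared with Cd300c2), 1.37% of Cd300ld and 0.644% of Cd300lf (shared with each other), and were absent from the other 6. Reads lying wholly within those stretches match both genes, and how many counts this removed was not tested.

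Promoters of members that moved together, or apart from the rest, are shown to let their proximal sequences be compared: Trem2, Cd300lf and Cd300lb, with large fold changes, and Hcst, with the smallest. Each spans 250 bases before to 50 bases after the start site (RefSeq, GRCm38.p6), 5′ to 3′ on the gene's strand, at chr17:48346151-48346450 (plus), chr11:115133943-115134242 (minus), chr11:114934322-114934621 (minus) and chr7:30419805-30420104 (minus). Capitals mark GAGGAA, a core bound by the myeloid factor PU.1, and GGAAGT, a core of ETS factors, on either strand (TTCCTC is GAGGAA and ACTTCC is GGAAGT on the opposite strand). These letters can overlap, as GAGGAAGT holds both.
Trem2: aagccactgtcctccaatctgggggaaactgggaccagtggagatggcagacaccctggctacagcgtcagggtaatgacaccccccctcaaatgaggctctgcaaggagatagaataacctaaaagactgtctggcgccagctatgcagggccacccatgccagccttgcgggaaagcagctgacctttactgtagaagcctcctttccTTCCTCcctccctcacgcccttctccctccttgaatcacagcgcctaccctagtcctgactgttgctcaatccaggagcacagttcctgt
Cd300lf: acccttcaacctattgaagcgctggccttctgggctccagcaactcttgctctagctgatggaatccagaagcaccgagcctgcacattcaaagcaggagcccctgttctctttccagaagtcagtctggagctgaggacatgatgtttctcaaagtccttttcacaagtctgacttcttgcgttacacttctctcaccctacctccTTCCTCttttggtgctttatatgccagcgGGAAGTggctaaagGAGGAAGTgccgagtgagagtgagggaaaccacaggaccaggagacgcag
Cd300lb: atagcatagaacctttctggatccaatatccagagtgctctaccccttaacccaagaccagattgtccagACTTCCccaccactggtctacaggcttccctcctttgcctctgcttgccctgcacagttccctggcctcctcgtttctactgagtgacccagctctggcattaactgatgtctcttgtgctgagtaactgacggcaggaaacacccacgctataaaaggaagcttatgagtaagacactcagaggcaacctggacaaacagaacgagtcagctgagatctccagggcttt
Hcst: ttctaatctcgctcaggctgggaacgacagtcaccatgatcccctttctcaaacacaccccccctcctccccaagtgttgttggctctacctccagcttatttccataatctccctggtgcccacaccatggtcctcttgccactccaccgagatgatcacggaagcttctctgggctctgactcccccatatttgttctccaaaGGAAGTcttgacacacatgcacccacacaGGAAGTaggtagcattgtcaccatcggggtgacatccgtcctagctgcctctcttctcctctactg
GAGGAA occurred in 5 and GGAAGT in 5 of the 7 members for which the table holds a promoter, against 28.3% and 23.8% of 32851 promoters. In Trem2 the match, on the opposite strand, lay 40 bases before the start site (-40), and in Cd300lf matches lay on both sides of the start site. Hcst held GGAAGT at -45 and -16, and Cd300lb held it at -180. GAGGAA was found in Trem2, Cd300lf, Cd300a, Cd300ld and Trem1 and not in Cd300lb or Hcst. Cd300lf and Cd300lb, whose fitted fold changes were close, thus differed in it. The fitted value of Cd300lb rests on the counts of sham mouse 1, as given below, so this closeness is uncertain. The letters TGANTCA (AP-1) were found only in Trem2 of the 7 (7.81% of all promoters), as tgaatca at -9. The spaced letters TTCNNNGAA (GAS) were found only in Trem1 (8.30% of all promoters), and the ISRE, the element of interferon response, in no member (3.44%). These matches are descriptions of the windows and say nothing of binding.

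All 9 genes had a higher CPM in every BCAS library than in any sham library, which held for 25.3% of tested genes. 8 of the 9 were tested and, against 8.47% of all tested genes, all 8 were up-regulated DEGs. Of these, Cd300lb, Cd300ld and Cd300lf passed the filter on low counts through the BCAS libraries alone, so that their calls follow in part from the filter. Trem2, Tyrobp, Treml2 and Cd300a reached the filter level of 0.302 CPM in all 6 libraries, and Hcst did so in 2 sham and 3 BCAS libraries. Trem1 did not pass the filter. The count of members called was 9 with DESeq2 (5.02% of its tested genes up-regulated), 9 without the filter (5.37%), 7 in an edgeR test against a 2-fold change (4.32%) and 7 to 9 when 1 mouse was left out (6.34% to 9.12%).

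**Figure D1:**
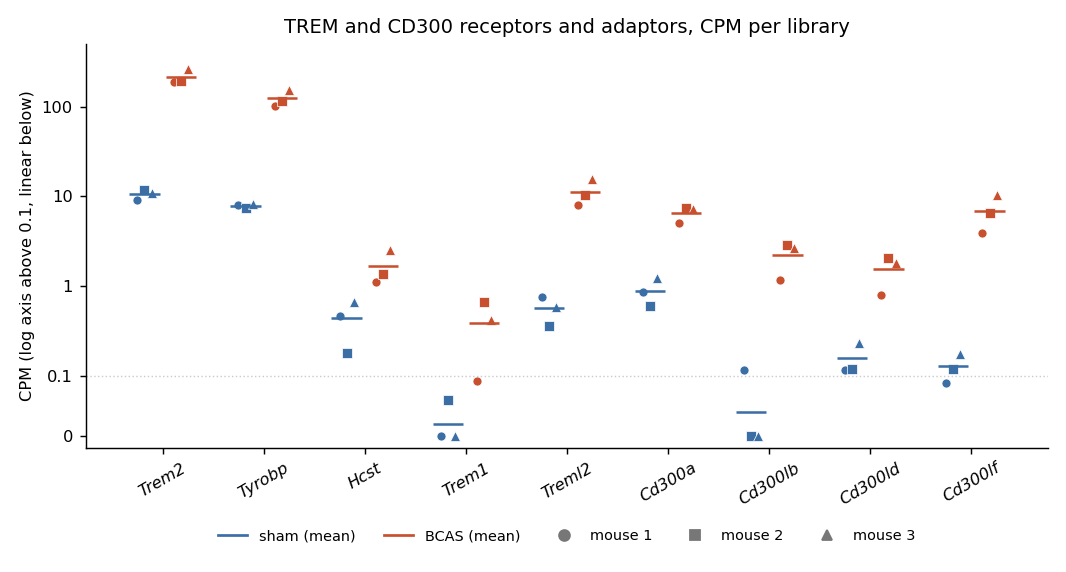
CPM of each gene in each library (log axis above 0.1 CPM, linear below), with sham mice in blue, BCAS mice in red, symbols for the individual mice and bars at group means. No gene overlapped between groups. The widest gaps on this axis are those of Trem2, Tyrobp, Treml2 and Cd300lf, and Trem1 and Hcst come closest to overlap.

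Trem2 was the most abundant of the 7 receptors per kilobase of exon in both groups. Its level was 9.23, 11.9 and 11.1 CPM in the 3 sham mice and 189.6, 194 and 264 CPM in the 3 BCAS mice. The lowest BCAS mouse thus lay far above the highest sham mouse, and the spread within each group was small beside the gap. The group means were 10.7 ± 1.36 and 216 ± 41.6 CPM (SD, n = 3 per group), a 20.1-fold difference (log2 fold change 4.33, SE 0.16, edgeR adjusted P = 4.87e-06).

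Tyrobp, the adaptor of Trem2 and of most activating receptors described here, rose with it. It measured 7.99, 7.36 and 8.16 CPM in the sham group against 103, 116 and 155 CPM in the BCAS group. Sham mice were nearly equal, and BCAS mouse 3 was highest, as for Trem2. The log2 fold change was 3.99 (SE 0.16, edgeR adjusted P = 4.87e-06), or 15.9-fold.

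Hcst, the adaptor that couples receptors such as NKG2D to phosphoinositide 3-kinase, was low and rose least of the tested members. It had 16, 6 and 23 counts in sham mice (0.472, 0.179 and 0.670 CPM) and 36, 41 and 79 counts in BCAS mice (1.11, 1.36 and 2.53 CPM). The groups did not overlap, and BCAS mouse 3 stood apart from the other two at 2.29-fold of mouse 1. The log2 fold change was 1.91 (SE 0.51, edgeR adjusted P = 0.0216). This call was lost without sham mouse 1 (log2 fold change 1.95, edgeR adjusted P = 0.0699), without sham mouse 2 (1.53, 0.0564), without BCAS mouse 3 (1.47, 0.0869) and in a test against a 2-fold change (edgeR adjusted P = 0.317). Over 14 alternatives the log2 fold change ranged from 1.47 to 2.34 and the adjusted P from 0.00234 to 0.317. T and NK cells also use Hcst, and their markers were higher in BCAS mice too: 6 of 6 tested were up-regulated. The 9 markers summed to 0.442 to 0.757 CPM in the sham group, and 7.29 to 9.22 CPM in the BCAS group. Cd8a (2.18 CPM in BCAS mice) and Cd4 (1.32 CPM) were the highest. Cd3d and Nkg7 had the largest fitted changes and were under the limit of detection in every sham library, and Cd4 (2.30) and Cd3e (3.24) had the smallest. All 6 were below the filter level in every sham library and were tested through the BCAS libraries alone, so that their count says little beyond these levels. Among BCAS mice these 6 did not have the order of Hcst: mouse 3 was 0.821-fold (Cd4) to 1.56-fold (Cd3d) of mouse 1. Markers too low to test had higher ratios, of 2.08 (Ncr1) to 4.17 (Gzmb). The part of T and NK cells in the Hcst values was not tested.

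Treml2, a receptor of myeloid and lymphoid cells that is not known to need Tyrobp, had 26, 12 and 20 counts in the sham group against 262, 315 and 486 counts in the BCAS group. In CPM these were 0.767, 0.359 and 0.583 against 8.06, 10.4 and 15.6. The groups were well apart and BCAS mouse 3 was again highest. The 19.8-fold difference (log2 fold change 4.31, SE 0.34, edgeR adjusted P = 4.84e-05) was close in size to that of Trem2. Among B cell markers, Cd79b and Ighm rose (2 of 4 tested), the 5 markers summed to 11.6 to 23.5 CPM in the sham group, and 48.5 to 77.6 CPM in the BCAS group, and Ms4a1, which encodes the B cell antigen CD20, stayed at or below 0.369 CPM in every library. Cd79a (0.85) and Pax5 (-0.54) were not DEGs. Their part in the Treml2 values was not tested.

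Trem1, a receptor that amplifies inflammatory responses of neutrophils and monocytes, was near the limit of detection. It had 0, 2 and 0 counts in the sham group against 3, 20 and 13 counts in the BCAS group. BCAS mouse 1 was thus at the limit while the other two BCAS mice were above it. Summed over mice, 2 counts stood against 36, a ratio of 19.5 with a 95% exact interval of 5.02 to 167. This interval and those given below for other members take the summed reads as independent. They cover counting error only, not the spread among mice, and are somewhat too narrow because both mates of a fragment were counted. Without the filter the log2 fold change was 4.06 (edgeR adjusted P = 0.0107). With the filter, Trem1 was tested in 4 of the fits that left out 1 mouse. It was below the filter level in every sham library and entered them through the BCAS libraries alone. Its calls there thus follow in part from the filter. Trem1 was not a DEG without sham mouse 1 (fitted log2 fold change 3.55, edgeR adjusted P = 0.0876) or sham mouse 3 (3.54, 0.0883). It was a DEG without BCAS mouse 1 (4.53, 0.0123) or sham mouse 2 (edgeR adjusted P = 0.0375). Without sham mouse 2 no sham count was left, and the BCAS mean was at least 4.44-fold higher than 3 counts per library.

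Neutrophil markers were near the limit too. None of the 2 tested was a DEG, the 11 markers summed to 0.927 to 3.50 CPM in the sham group, and 1.05 to 4.31 CPM in the BCAS group, and Ly6g was at 0 in every library. Cxcr2 (0.0615, 0.662 and 0.480 CPM in BCAS mice 1, 2 and 3) and S100a8 (0.154, 1.19 and 0.769 CPM) had the same order among BCAS mice as Trem1 (0.0922, 0.662 and 0.416 CPM), as did Retnlg (0, 0.530 and 0.128 CPM) and Ltf (0, 0.132 and 0.0641 CPM). Other markers of the list did not. S100a9 (0.430, 1.32 and 1.41 CPM) and Mmp8 (0, 0.397 and 0.480 CPM) were highest in mouse 3, and Mpo (0.277, 0.0662 and 0.0641 CPM) in mouse 1. With 3 mice these orders are descriptions, and the part of neutrophils in the Trem1 counts was not tested.

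Cd300a, an inhibitory receptor for phosphatidylserine and phosphatidylethanolamine, had the highest level per kilobase of the 4 CD300 receptors in sham mice. It measured 0.855, 0.598 and 1.22 CPM in the sham group against 5.01, 7.42 and 7.21 CPM in the BCAS group. The groups were apart, with BCAS mouse 1 lowest. The 7.30-fold difference (log2 fold change 2.87, SE 0.29, edgeR adjusted P = 1.83e-04) was near those of general microglial genes described below.

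Cd300lf, which also binds phosphatidylserine and carries inhibitory motifs, had a fitted change close to that of Cd300lb and above those of the other tested members. It was near the limit of detection in sham mice, with 3, 4 and 6 counts, and had 126, 198 and 321 counts in BCAS mice (3.87, 6.56 and 10.3 CPM). BCAS mice differed among themselves by up to 2.65-fold, and all were far above the sham mice. The log2 fold change was 5.71 (SE 0.48, edgeR adjusted P = 6.32e-05), and the ratio of summed counts, 13 against 645, was 53.7 (95% exact interval 31.2 to 101, counting error only).

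Cd300lb, an activating receptor that pairs with Tyrobp, had 4, 0 and 0 counts in the sham group, and 38, 87 and 83 counts in the BCAS group. It was therefore not detected in 2 of 3 sham hippocampi and detected in every BCAS hippocampus, with BCAS mouse 1 lowest. The ratio of summed counts was 56.3 (95% exact interval 21.7 to 209, counting error only) and the log2 fold change 5.70 (SE 0.81, edgeR adjusted P = 0.00116). The fitted value rests on sham mouse 1: without it the sham group held 0 counts, the fitted value became 9.18, which is no bound, and the BCAS mean of 2.24 CPM was at least 25.2-fold higher than 3 counts per library.

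Cd300ld, an activating receptor, had 4, 4 and 8 counts in the sham group against 26, 63 and 57 counts in the BCAS group. Its BCAS mice had the order of Cd300lb, with mouse 1 lowest and the other two close to each other. The log2 fold change was 3.29 (SE 0.52, edgeR adjusted P = 0.00200), and the ratio of summed counts was 9.88 (95% exact interval 5.88 to 17.7, counting error only).

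Ranked by fold change among the 18617 tested genes, Cd300lf was 31st, Cd300lb 32nd, Trem2 107th, Treml2 110th, Tyrobp 146th, Cd300ld 282nd, Cd300a 407th and Hcst 813th. Cd300lf, Cd300lb and Cd300ld had few sham counts and passed the filter through the BCAS libraries alone, so their ranks are imprecise. The rank of Cd300lb rests on the counts of sham mouse 1. The median over all tested genes was 0.018 on the log2 scale.

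**Figure D2:**
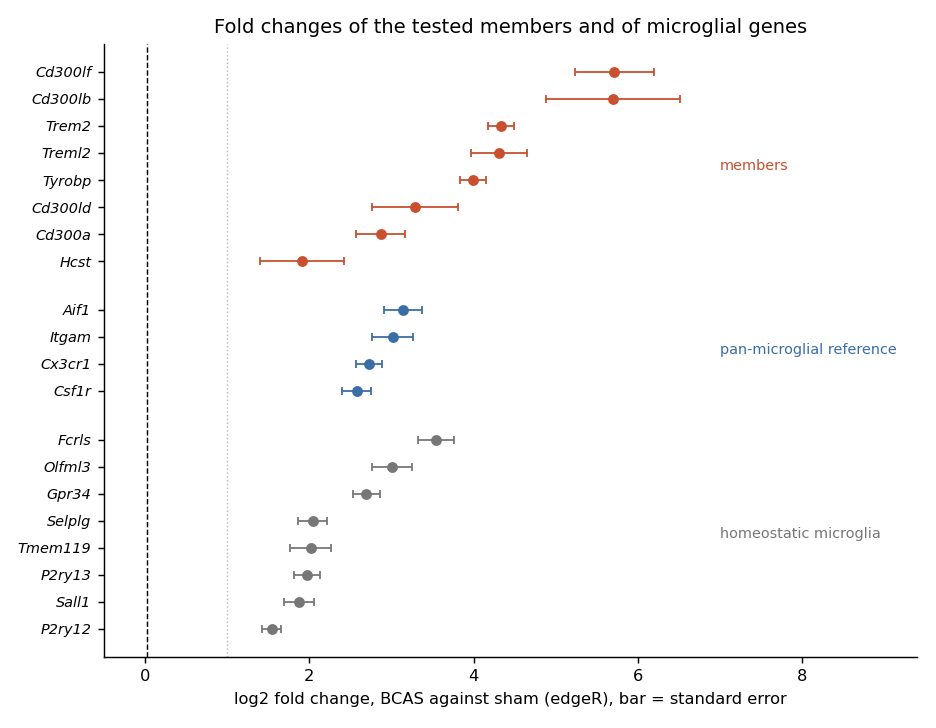
Log2 fold change (BCAS against sham, edgeR) with its standard error for the 8 tested members in red, the pan-microglial reference genes in blue and homeostatic microglial genes in grey, with a dashed line at the median of all tested genes and a dotted line at 1. Trem2 (4.33), Treml2 (4.31) and Tyrobp (3.99) lay above every reference gene (2.58 to 3.14), and Hcst (1.91) lay below them.

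Levels of different genes were compared per kilobase of exon (RPKM, that is CPM divided by exon length). In BCAS mice Tyrobp was highest at 187 ± 41.0 RPKM, followed by Trem2 at 43.7 ± 8.42 RPKM, and their ranges did not overlap. Treml2 and Hcst followed at 2.31 RPKM each, then Cd300a at 1.38 and Cd300lf at 1.34 RPKM, and these neighbours did not differ beyond their spread. The place of Cd300lf depended on the length used: with the longest coding transcript it reached 3.66 ± 1.71 RPKM, close to Hcst at 3.77 ± 1.72 RPKM and above Cd300a at 1.41 ± 0.287 RPKM. Cd300lb (0.767 RPKM), Cd300ld (0.594 RPKM) and Trem1 (0.130 RPKM) were lowest, and the values of Cd300lb and Cd300ld overlapped.

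In sham mice Tyrobp, at 11.7 ± 0.633 RPKM, and Trem2, at 2.17 ± 0.274 RPKM, again had the highest levels. Hcst came next at 0.610 ± 0.342 RPKM. Cd300a (0.188 RPKM) and Treml2 (0.116 RPKM) followed, with overlapping values, and the remaining 4 were below 0.1 RPKM. The distance between Tyrobp and Trem2 also depended on the length used. The merged exons of Trem2 span 4946 bases, and its longest coding transcript 1088 bases. With the latter, Trem2 reached 198 ± 38.3 RPKM and Tyrobp 209 ± 45.8 RPKM in BCAS mice, which did not differ beyond their spread. In sham mice Trem2 was at 9.86 ± 1.25 RPKM and Tyrobp at 13.1 ± 0.707 RPKM, which differed by more than their spread.

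As a share of the summed RPKM of the 7 receptors, Trem2 made up 84.0 ± 4.59% in the sham group, and 87.2 ± 2.70% in the BCAS group, and these values overlapped. The share of Cd300a was 4.70% to 9.44% in the sham group against 2.46% to 3.39% in the BCAS group. The share of Cd300lf was 0.745% to 1.24% in the sham group, and 1.77% to 3.23% in the BCAS group. The first was lower and the second higher in every BCAS mouse than in any sham mouse, and neither was tested. These shares rest on the merged exon lengths. With the longest coding transcripts, Trem2 made up 95.3 ± 1.44% and 95.5 ± 1.04%, Cd300a 1.88% and 0.685%, and Cd300lf 0.649% and 1.71% of the sham and BCAS sums.

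Ratios between 2 members within a library, which cancel the scaling of libraries but are not per length, were compared for 7 pairs as log2 CPM with a prior count of 2. The exact permutation test of 3 against 3 cannot give a P below 0.1, so the groups could at most be apart. After adjustment over the 7 pairs, those at 0.1 had a P of 0.14. Trem2 against Tyrobp was 0.44 ± 0.24 in the sham group against 0.80 ± 0.08 in the BCAS group, a difference of 0.35 with the groups apart (exact P = 0.1). Hcst against Tyrobp was -4.12 ± 0.75 in the sham group, and -6.24 ± 0.29 in the BCAS group, a difference of -2.12 (exact P = 0.1). The CPM of the 2 adaptors thus lay farther apart in BCAS mice.

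Among receptors, Cd300lf against Cd300a went from -2.31 ± 0.39 to -0.01 ± 0.46 on the log2 scale, a difference of 2.30 (exact P = 0.1). The balance of these inhibitory receptors thus differed between the groups by more than the spread among mice. Cd300lb against Cd300a differed by 1.79 (exact P = 0.1), with sham values that depend on the prior count: the difference was 3.16 (exact P = 0.1) with a prior count of 0.5 and 0.89 with a prior count of 5, where the groups overlapped (exact P = 0.2). Treml2 against Trem2 differed by -0.14 (exact P = 0.9) and Cd300ld against Cd300a by 0.01 (exact P = 1), and both pairs overlapped between groups. Trem1 against Trem2 differed by -2.03 (exact P = 0.1), but its sham values are set by the prior count: the difference was -2.80 (exact P = 0.1) with a prior count of 5 and -0.72 with a prior count of 0.5, where the groups overlapped (exact P = 0.5).

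**Figure D3:**
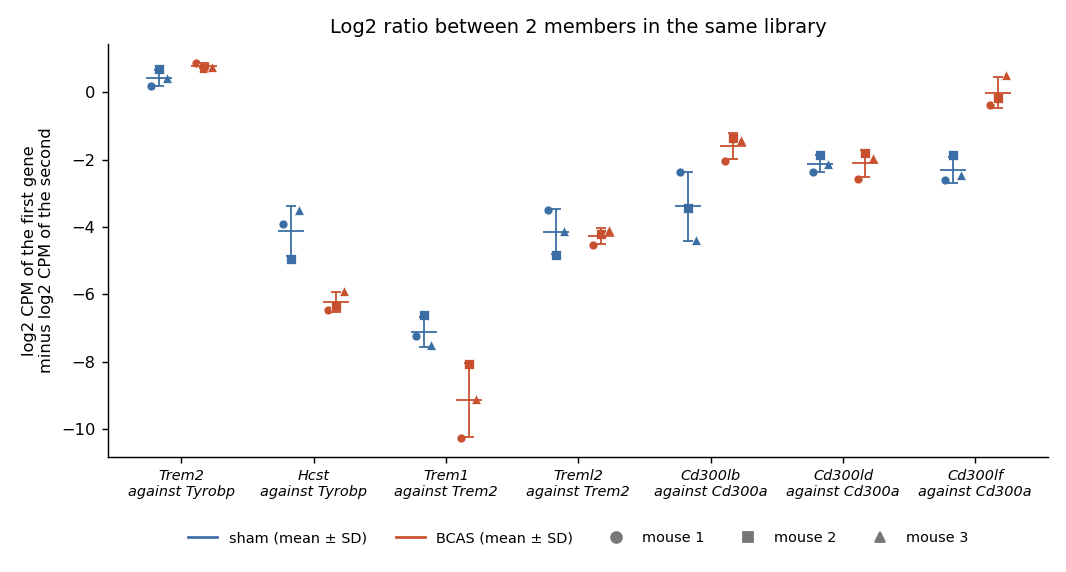
Log2 ratio of 2 members within each library, with sham mice in blue, BCAS mice in red, symbols for mice and mean ± SD. Hcst against Tyrobp lay lower in every BCAS mouse, Cd300lb and Cd300lf against Cd300a lay higher, and Treml2 against Trem2 and Cd300ld against Cd300a overlapped.

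General microglial genes rose as well. The pan-microglial reference of 4 genes (Aif1, Csf1r, Cx3cr1 and Itgam) had 4 up-regulated DEGs, with a summed level of 142 to 151 CPM in the sham group against 757 to 1208 CPM in the BCAS group. All 8 homeostatic microglial genes tested were up-regulated, with a median log2 fold change of 2.03. The largest rises among them were those of Fcrls (3.54) and Olfml3 (3.00), which had the highest CPM of the list in BCAS mice, and the smallest those of P2ry12 (1.54), which had the highest CPM in sham mice, and Sall1 (1.87). The part of cell number in the members' values was not tested. Each member was set against the reference of its own library, and BCAS mice were compared with sham mice on that scale.

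Relative to the reference, Trem2 was higher by 1.499 on the log2 scale in BCAS mice, Treml2 by 1.36 and Tyrobp by 1.15. The 3 sham values of Trem2 were -0.92, -0.52 and -0.71 and the 3 BCAS values 0.89, 0.85 and 0.61, so that the groups were apart (exact P = 0.1, the smallest possible). The groups were also apart for Treml2, Tyrobp, Cd300lf (2.31) and Cd300lb (1.80), each with an exact P of 0.1. The sham values of Cd300lb, at 4, 0 and 0 counts, are set by the prior count: its difference was 3.23 with a prior count of 0.5 and 0.79 with a prior count of 5, where the groups overlapped (exact P = 0.2). Trem2, Tyrobp, Treml2 and Cd300lf thus differed by more than the microglial reference did at all 3 prior counts, and Cd300lb at 2 of them.

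Cd300a (0.01, exact P = 1) and Cd300ld (0.02, exact P = 0.9) differed from sham mice by about as much as the reference, and the sign of both changed with the prior count and with the mouse left out. Hcst lay lower relative to the reference (BCAS minus sham -0.98, exact P = 0.2), as did Trem1 (-0.53, exact P = 0.4), and both overlapped between groups. Both depended on the prior count. With a prior count of 5 the groups were apart, at -1.17 for Hcst and -1.30 for Trem1 (exact P = 0.1 each), and with a prior count of 0.5 the sign for Trem1 changed. The Trem1 value also rested on single mice and moved both ways, to -0.019 without BCAS mouse 1 (exact P = 1), -0.18 without sham mouse 2 (exact P = 0.7) and -1.10 without BCAS mouse 2 (exact P = 0.1).

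These 4 values further depended on the reference. Against the 8 homeostatic microglial genes, whose median rise was smaller, Hcst differed by -0.45 (exact P = 0.4), Trem1 by -0.0050 (exact P = 1), Cd300a by 0.53 (exact P = 0.3) and Cd300ld by 0.54 (exact P = 0.3). The groups were apart on that scale for the other 5 members, with differences of 1.67 (Tyrobp) to 2.83 (Cd300lf), each with an exact P of 0.1.

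**Figure D4:**
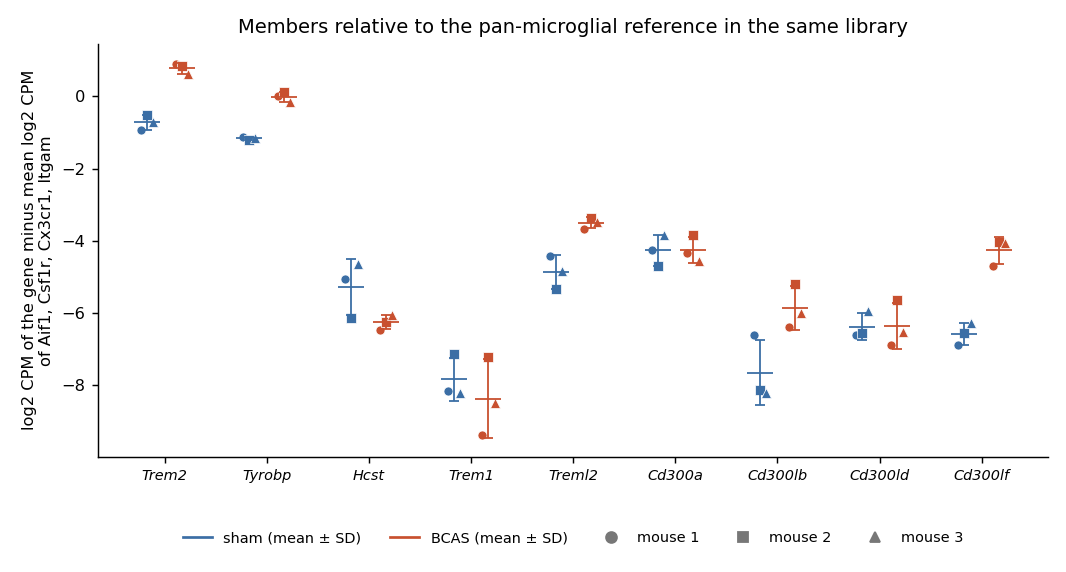
Log2 CPM of each gene minus the mean log2 CPM of the 4 reference genes in the same library (prior count of 2), with sham mice in blue, BCAS mice in red, symbols for mice and mean ± SD. Trem2, Tyrobp, Treml2, Cd300lb and Cd300lf were higher in every BCAS mouse than in any sham mouse, and the other 4 overlapped.

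The 3 BCAS mice did not differ in the same way for all members. BCAS mouse 1 was lowest for all 9. Mouse 3 was highest for Trem2, Tyrobp, Hcst, Treml2 and Cd300lf, and mouse 2 for Trem1, Cd300a, Cd300lb and Cd300ld. For Trem2, mouse 2 was 1.02-fold of mouse 1 (95% exact interval 0.988 to 1.06) and mouse 3 was 1.39-fold (1.35 to 1.44).

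For Cd300lb, mouse 2 was 2.47-fold of mouse 1 (1.67 to 3.71) and mouse 3 was 2.27-fold (1.53 to 3.43). For Cd300ld the same ratios were 2.61 (1.63 to 4.30) and 2.28 (1.41 to 3.78). These intervals cover counting error only and are somewhat too narrow, since the mates of a fragment were counted separately. Mouse 1 thus stood below both others for Cd300lb and Cd300ld, while for Trem2 mice 1 and 2 were alike and mouse 3 stood above them.

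The reference genes resembled Trem2 in this respect, with ratios of mouse 2 to mouse 1 of 0.950 (Cx3cr1) to 1.16 (Csf1r) and of mouse 3 to mouse 1 of 1.44 to 1.93. Some monocyte markers resembled Cd300lb: Ly6c2, a marker of classical monocytes, had ratios of 2.04 and 1.896, and Plac8 of 1.93 and 2.08. Others did not, with ratios of 0.998 and 1.24 for F13a1, 0.954 and 1.29 for Vcan, and 0.988 and 0.766 for Itga4. Among border-associated macrophage markers, Lyve1 had ratios of 2.99 and 2.20, and Mrc1 of 1.10 and 1.33. Of 7 monocyte markers tested 4 were up-regulated: Ly6c2, Plac8, Ccr2 (0.501 to 4.35 CPM) and F13a1 (2.99 to 7.71 CPM). Ly6c2 and Plac8 were below the filter level in every sham library. The 8 markers summed to 49.96 to 58.7 CPM in the sham group, and 65.0 to 74.9 CPM in the BCAS group. Vcan and Itga4, which were not DEGs, made up most of these sums. The border-associated macrophage markers summed to 8.46 to 11.8 and 22.0 to 29.2 CPM. Ms4a7, Mrc1, Cd163 and Cbr2 were up-regulated and Lyve1 (0.14) and Pf4 (0.70) were not. Spp1 and Gpnmb, which DAM express, also had mouse 1 lowest, with ratios of mouse 2 to mouse 1 of 2.50 and 4.34. They were exceptions in their list of 13, in which the other ratios lay between 0.874 and 1.45 and Itgax was highest in mouse 1. Choroid plexus markers summed to 5826, 37.7 and 3150 CPM in BCAS mice 1, 2 and 3, the reverse of the order for Cd300lb and Cd300ld. Hippocampal neuron markers summed to 817, 688 and 599.6 CPM in the same mice. The make-up of the tissue thus also differed among BCAS mice. The part of any of these cells in the members' values was not tested.

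**Figure D5:**
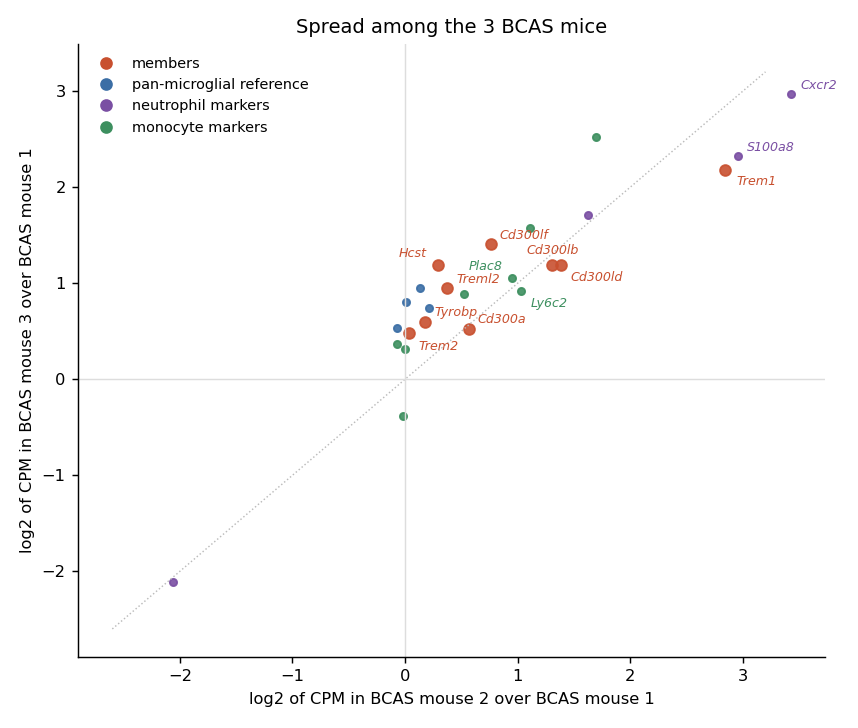
Log2 ratio of CPM in BCAS mouse 2 (x axis) and BCAS mouse 3 (y axis) to BCAS mouse 1, for members in red, reference genes in blue, neutrophil markers in purple and monocyte markers in green, with a dotted line of equal ratios. Trem2 and Tyrobp lie by the reference genes, Cd300lb and Cd300ld farther along both axes, and Trem1 farthest of the members. The markers of each cell type are spread out: Ly6c2 and Plac8 lie near Cd300lb while F13a1, Vcan and Itga4 lie near 0 on the x axis, and S100a8 and Cxcr2 lie near Trem1 while Mpo lies below 0 on both axes.

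The remaining genes of the families were mostly too low to test. Of 11 found, 3 were tested and 2 were up-regulated: Cd300c2, which pairs with adaptors and shares sequence with Cd300a, went from 2.44 ± 0.449 to 28.1 ± 7.01 CPM (log2 fold change 3.53, edgeR adjusted P = 2.03e-05), and Treml1, known from platelets, had 0, 2 and 2 counts in sham libraries and 0.369, 0.431 and 0.320 CPM in BCAS libraries (edgeR adjusted P = 0.0119). Treml1 was thus under the limit of detection in every sham library and was tested through the BCAS libraries alone, and its fold is not given. Cd300c2 did not overlap between groups. Cd300lg, an endothelial gene, overlapped between groups (log2 fold change 0.06, edgeR adjusted P = 0.968).

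Other receptors that use Tyrobp or Hcst were up-regulated in 6 of the 6 tested, of 12 found. Cd300c2, already counted above, is among them. Clec5a and Siglech, both Tyrobp partners of myeloid cells, rose by 2.90 and 2.30 on the log2 scale. Klrk1 (NKG2D, the main Hcst partner) rose by 2.90 (edgeR adjusted P = 0.0157) and Klrd1 by 2.99 (0.00692), both at 1.32 CPM or less in every library. Cd200r4 had 0 counts in every sham library and 3.02 ± 0.380 CPM in BCAS mice, at least 34.1-fold higher than 3 counts per library. The low receptors Klrk1, Klrd1 and Cd200r4 passed the filter through the BCAS libraries alone.

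Among 15 genes of signalling below the adaptors, 13 were up-regulated and none down-regulated, with a median log2 fold change of 2.73. Syk, the kinase recruited by Tyrobp, went from 3.91 ± 0.244 to 21.4 ± 6.32 CPM (log2 fold change 2.45, SE 0.21, edgeR adjusted P = 7.21e-05). Its target Plcg2 rose by 2.29, the exchange factor Vav1 by 3.11, Btk by 3.46, the adaptor Lat2 by 3.89 and the Src-family kinase Fgr by 6.01. Vav3 (-0.25, edgeR adjusted P = 0.317) was not a DEG, and Pik3cd (0.75, edgeR adjusted P = 0.00152) stayed under the fold threshold. Lyn, another Src-family kinase, was among the highest of the list and rose by 2.63. Fgr was below the filter level in every sham library. Most of these genes are expressed by blood cells and microglia in general.

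Of the 3 phosphatases that inhibitory receptors recruit, Ptpn6 (SHP-1) rose by 3.57 and Inpp5d (SHIP-1) by 3.01 on the log2 scale. Ptpn11 (SHP-2), which most cell types express, went from 201 ± 11.9 to 219 ± 12.4 CPM and was not a DEG (0.13, edgeR adjusted P = 0.264).

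Ligands were mixed, with 3 of 7 tested up-regulated and a median log2 fold change of 0.01. Apoe, a lipid carrier that Trem2 binds, had 1478 to 1702 CPM in the sham group against 5754 to 7827 CPM in the BCAS group (log2 fold change 2.10, edgeR adjusted P = 6.33e-05). Clu rose by 1.15, and Ulbp1, a ligand of NKG2D, by 3.14 from 0.206 to 1.85 CPM. Ulbp1 was below the filter level in every sham library and was tested through the BCAS libraries alone. App lay lower in BCAS mice by less than the fold threshold (-0.36, edgeR adjusted P = 0.0438). The Trem1 ligands Pglyrp1 (-0.23) and Hmgb1 (-0.06) and the Treml2 ligand Cd276 (0.01) were not DEGs. Of the 2 sheddases of Trem2, Adam17 rose by 1.41 (edgeR adjusted P = 3.22e-04), and Adam10 (0.37, edgeR adjusted P = 0.00767) stayed under the fold threshold.

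DAM genes are commonly divided into those that appear without Trem2 and those that need it. Of the Trem2-dependent list 12 of 13 were up-regulated, with a median log2 fold change of 4.33. Cst7, a protease inhibitor, had the largest value at 10.37 (edgeR adjusted P = 2.48e-07), followed by the lectin receptor Clec7a at 7.25. Cst7 and Lilrb4a were below the filter level in every sham library and were tested through the BCAS libraries alone. Timp2, an abundant protease inhibitor, went from 412 to 645 CPM and stayed under the fold threshold (0.65), and the cathepsin Ctsl rose by 2.15 and the lipase Lpl by 1.39. Of the Trem2-independent list 5 of 6 were up-regulated, with a median of 2.65. These were the lysozyme Lyz2 (4.88), the cathepsins Ctsd (3.39) and Ctsb (1.80), B2m (3.19) and Apoe (2.10), while the ferritin chain Fth1 (0.19) was not a DEG. The difference between the lists was not tested.

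The genes with the profile most like that of Trem2, by Euclidean distance of log2 CPM, centred on the sham mean, over the 6 libraries, were Lag3 (distance 0.264), H2-Ob, Cd68, Ly86 and Arl11, out of 15630 tested genes with a mean of at least 1 CPM. Lag3 went from 5.59 to 117 CPM. For Tyrobp they were C1qa (distance 0.120, 35.1 to 542 CPM), Fcgr2b, Cd84, Csf2rb and Ctss. These distances describe likeness over 2 groups of 3 libraries and follow mostly from the size of the group difference.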

How the data were processed

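Total RNA of the right hippocampus of 3 sham and 3 BCAS mice was sequenced as paired ends. The authors trimmed reads with Trim Galore, aligned them to mm10 with HISAT2 and deposited raw counts per gene. Per the file headers these came from featureCounts 2.0.3 with GENCODE M20 exons (the labels name version 1.6.3), with mates counted as separate reads, no use of strand, and multi-mapped reads left out. The effect is that counts are nearly doubled and near-identical stretches can lose reads.

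Counts were tested with edgeR 4.0.16 (quasi-likelihood, filterByExpr, TMM, Benjamini-Hochberg over all 18617 tested genes) in R 4.3.3, with the study's thresholds. Standard errors were derived from the fold change and F statistic. CPM were scaled by TMM factors, and log2 CPM used a prior count of 2. RPKM used the deposited exon lengths. Exact two-sided permutation tests compared single values between libraries. DESeq2 1.42.0, limma 3.58.1, other filters, scalings, prior counts and leaving out each mouse were alternatives. The edgeR, limma and DESeq2 fits were tested on simulated counts. In these, only genes with more sham counts than Trem1, Cd300lb, Cd300ld and Cd300lf were changed. Ratios, shares and motif matches were not part of that.

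The members and gene lists were chosen with earlier results of these data known. All members were named. From lists longer than 6 genes, the 2 highest and 2 lowest fold changes and the 2 highest levels among tested genes were named. Neuron and choroid plexus markers were given by sums and counts only. Genes that a sentence on a receptor, adaptor or ligand is about were also named. Some genes (Spp1, Gpnmb, Cxcr2, S100a8, Retnlg, Ltf, Mpo, Ly6c2, Plac8, Ccr2, F13a1 and Itgax) were chosen after their values were seen. Gene symbols matched 54723 of 54752 identifiers. 1 gene of the microglial reference and 1 B cell marker are not reported here and entered no value of those lists.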

Additional observations from a re-analysis of the deposited data

How the results depend on the processing

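With 3 mice per group and several members at a few counts in sham mice, the sizes of the changes of Trem1, Cd300lb, Cd300ld and Cd300lf were imprecise, and the exact tests could not pass 0.05. The fold changes of the 8 tested members kept their direction under the 14 alternative fits, and that of Trem1 in the 6 fits in which it had a value. The 8 members up-regulated became 9 with DESeq2 and without the filter, 7 in the test against a 2-fold change, and 7 to 9 when 1 mouse was left out. Of 71 distinct genes found for the fixed pathway lists, which leave out cell type markers, 53 were tested and 42 were up-regulated DEGs. Among all tested genes 8.47% were up-regulated. The 42 list DEGs ranged from 37 to 43 over the alternatives. Other TREM and CD300 DEGs fell to 1 in the test against a 2-fold change and with a filter at a mean of 10 counts, and sheddases to 0 in the former. In the order of levels in BCAS mice, 7 of 9 genes kept their place with library totals, and 5 with the length of the longest coding transcript, which was chosen after seeing the data, as was its use for the receptor shares. With library totals the median of all genes moved to 0.09.

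The replicate numbers did not pair the mice (correlations of same-numbered residuals 0.04, -0.31 and -0.16), and a fit with the replicate block gave 8 members and 42 list genes. These are the numbers of the labels. The deposited columns number the BCAS mice from 2 to 4, which would pair 2 mice of each group (correlations 0.22 and 0.35), and no fit with that pairing was made. These couples were also alike in choroid plexus markers. Sham mouse 2 and BCAS mouse 1 had 4014 and 5826 CPM, and sham mouse 3 and BCAS mouse 2 had 66.3 and 37.7 CPM. The part of choroid plexus in these correlations was not tested.

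Some signs changed. Treml2 against Trem2 became 0.19 without sham mouse 1 and ranged from -0.48 to 0.19 when 1 mouse was left out. Cd300ld against Cd300a became -0.30 with a prior count of 5, and ranged from -0.14 to 0.24 when 1 mouse was left out. Relative to the reference, Trem1 became 0.78 with a prior count of 0.5. With a prior count of 5 Cd300a became -0.099 and Cd300ld -0.40. Leaving out 1 mouse gave -0.21 to 0.23 for Cd300a and -0.33 to 0.29 for Cd300ld. The cause of these changes was not tested.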
